A study of Homo sapiens with 22 samples.

Results

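The sites described here were promoters at which N-MYC and WDR5 were both found in CHP-134 cells and at which no WDR5 peak was listed in IMR-32 cells. They were chosen by measured values, namely the peaks of the 6 DMSO lists of CHP-134 and of the 2 WDR5 lists of IMR-32. N-MYC and WDR5 regions of CHP-134 DMSO cells, each hit by at least 2 of 3 libraries, were joined where they overlapped by 1 bp or more, which gave 1426 cobound sites. Of these, 1242 had their centre within 1 kb of a transcription start site (TSS), and 600 of the 1242 overlapped no peak of either IMR-32 WDR5 list (48.3%). These 600 are called the IMR-32-lacking sites, and the other 642 promoter sites, which overlapped an IMR-32 WDR5 peak, are called the shared sites. Absence from a list means only that no peak passed the q-value threshold of 0.05 used by the authors, not that the protein was missing from the site.

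ChIP-seq was performed in CHP-134 and IMR-32, both established neuroblastoma cell lines with N-MYC amplification. The CHP-134 cultures received DMSO, given as 0.0005% in the treatment label and 0.005% in the extract label, or a compound for 4 h, and 3 lists per antibody were used from each arm. No treatment was recorded for the IMR-32 cells, which gave 2 N-MYC lists (replicates 1 and 2) and 2 WDR5 lists (replicates 1 and 3). The compound is named in different ways by the labels and is therefore not identified further. The study's methods state that the ChIP-seq was run as independent experiments, with 3 ChIPs pooled into each library. The CHP-134 libraries were sequenced as single reads and the IMR-32 libraries as paired-end reads on another instrument, so the line, its treatment and the sequencing run cannot be told apart. The lists hold no gene expression, so the cell identity of the lines could not be checked against markers.

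N-MYC is a transcription factor of the MYC family that, together with MAX, binds E-boxes of the sequence CACGTG, mostly near the start of active genes. Amplification of its gene is a hallmark of high-risk neuroblastoma. WDR5 is a small WD40-repeat protein that serves as a scaffold in the MLL/SET1 histone H3K4 methyltransferases and other chromatin complexes. It also contacts MYC proteins directly through a short motif known as Myc Box IIIb, and its binding in many cell types includes genes of the ribosome and of translation.

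The windows printed next show the DNA at the N-MYC summit of 8 IMR-32-lacking sites, 60 bp to each side of the CHP-134 summit with the best q-value, in hg19 and on the strand of the named gene. Capitals mark CACGTG. The first set is shown because its sites had the highest N-MYC percentiles in IMR-32 despite the absence of a WDR5 peak there. It comprises ENSG00000286874 at chr7:4681687-4681807 (plus strand), FBXW8 at chr12:117348620-117348740 (plus strand), CYTH1 at chr17:76713125-76713245 (minus strand) and DUS3L at chr19:5790783-5790903 (minus strand). The N-MYC summit lay 132 bp, 90 bp and 78 bp upstream of the TSS in the first 3 and 331 bp downstream in DUS3L, within an intron.
ENSG00000286874: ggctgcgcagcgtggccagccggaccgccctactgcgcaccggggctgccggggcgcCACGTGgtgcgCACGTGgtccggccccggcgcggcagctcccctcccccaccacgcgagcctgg
FBXW8: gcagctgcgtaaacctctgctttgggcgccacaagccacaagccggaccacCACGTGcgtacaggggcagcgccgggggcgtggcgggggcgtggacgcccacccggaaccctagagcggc
CYTH1: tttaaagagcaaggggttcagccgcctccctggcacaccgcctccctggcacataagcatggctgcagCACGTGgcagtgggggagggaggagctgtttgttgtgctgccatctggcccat
DUS3L: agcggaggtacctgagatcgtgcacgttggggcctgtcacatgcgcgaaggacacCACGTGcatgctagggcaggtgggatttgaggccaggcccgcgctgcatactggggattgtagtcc
The window of ENSG00000286874, a long noncoding RNA gene, holds 2 E-boxes, and each of the other windows holds 1.

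The second set is shown as a contrast. PURA at chr5:139493501-139493621 (plus strand) and TRIM71 at chr3:32858683-32858803 (plus strand) had high N-MYC percentiles in CHP-134 and no N-MYC peak in IMR-32. RNF130 at chr5:179499196-179499316 (minus strand) and TASOR2 at chr10:5726453-5726573 (plus strand) were among the IMR-32-lacking sites with the highest WDR5 percentiles in CHP-134. All of these windows lie upstream of the TSS that names the site.
PURA: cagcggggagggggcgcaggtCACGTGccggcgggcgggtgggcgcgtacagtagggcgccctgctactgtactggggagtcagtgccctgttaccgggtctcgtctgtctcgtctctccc
TRIM71: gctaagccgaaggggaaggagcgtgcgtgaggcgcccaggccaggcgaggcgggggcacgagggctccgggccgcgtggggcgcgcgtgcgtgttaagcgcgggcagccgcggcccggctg
RNF130: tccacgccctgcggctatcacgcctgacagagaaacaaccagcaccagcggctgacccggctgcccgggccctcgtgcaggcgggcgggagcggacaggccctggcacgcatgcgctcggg
TASOR2: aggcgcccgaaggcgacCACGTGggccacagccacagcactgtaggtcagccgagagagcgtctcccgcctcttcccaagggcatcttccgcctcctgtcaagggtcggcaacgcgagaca
PURA and TASOR2 each hold 1 E-box, whereas TRIM71 and RNF130 hold none. The TRIM71 window has 2 copies of CACGCG (or its reverse complement CGCGTG), a variant that MYC proteins also bind.

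Shorter windows of 30 bases are given for E-boxes at members of the growth-related gene lists described further on. They are UTP11 at chr1:38478140-38478169 (plus strand), CENPF at chr1:214776333-214776362 (plus strand), SNHG26 at chr7:22893925-22893954 (plus strand) and EIF4E at chr4:99850339-99850368 (minus strand). The E-box centre was 251, 190, 78 and 111 bp upstream of the TSS, in that order, and was annotated as intronic in UTP11 and SNHG26, whose genes have other start sites, and as upstream of the gene in CENPF and EIF4E.
UTP11: gccagtgccagcCACGTGttcccaggtgcc
CENPF: cattagcaaaagCACGTGgtctccgtctcc
SNHG26: gcaggagccgacCACGTGgctccggggcta
EIF4E: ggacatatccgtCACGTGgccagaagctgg

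The values that chose the sites are given first, as a description without a test. N-MYC was found at IMR-32-lacking and shared sites alike in the DMSO lists of CHP-134, at 99.5%, 90.5% and 96.0% of IMR-32-lacking sites in replicates 1, 2 and 3 and at 98.9%, 91.1% and 97.98% of shared sites. The median percentile of the N-MYC fold, which is the authors' enrichment over local background ranked within a list, was 82.3, 72.5 and 79.5 at IMR-32-lacking sites and 82.7, 72.7 and 79.9 at shared sites. N-MYC rank in CHP-134 therefore did not separate the sets. WDR5 rank did. WDR5 peaks were listed at 95.5%, 72.8% and 59.8% of IMR-32-lacking sites and at 98.1%, 88.0% and 82.2% of shared sites. Their median fold percentile was 57.4, 44.7 and 42.8 at IMR-32-lacking sites, below the 86.6, 72.9 and 74.1 of shared sites in every library.

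Sites were then placed in 5 equal bands by their mean WDR5 percentile over the DMSO lists. From the lowest to the highest band, 68.7%, 59.3%, 54.8%, 48.4% and 10.4% of the promoter cobound sites lacked WDR5 in IMR-32. The highest band thus stands apart, with 26 of 249 sites lacking WDR5 in IMR-32. Bands of the mean N-MYC percentile ran between 47.6% and 49.4%. A WDR5 peak in all 3 DMSO lists was found at 169 IMR-32-lacking sites (28.2%) and at 439 shared sites (68.4%). Of the 431 IMR-32-lacking sites with WDR5 in 2 lists, 241 were listed in replicates 1 and 2, 163 in replicates 1 and 3, and 27 in replicates 2 and 3. The number of sites leans on the WDR5 list of replicate 1, the longest with 4891 peaks against 1758 and 1671. Without it 187 sites lacked WDR5 in IMR-32, and without replicate 2 there were 330. The IMR-32 WDR5 lists, which decide what counts as lacking, held 1693 and 1258 peaks in replicates 1 and 3.

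**Figure D1:**
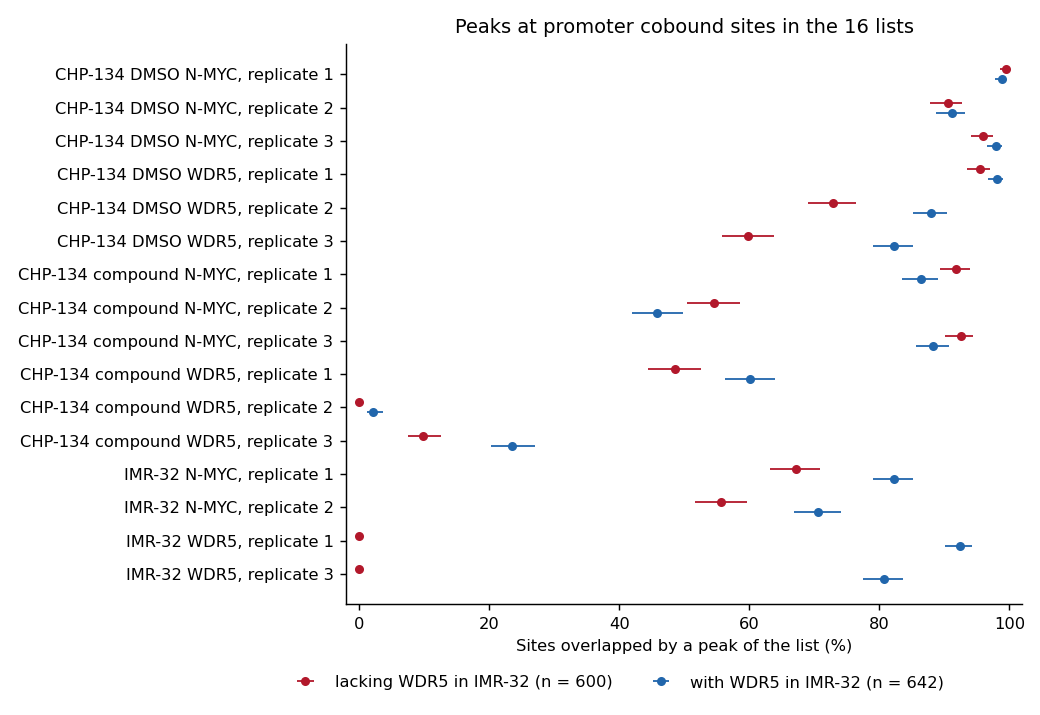
Share of the 600 IMR-32-lacking sites (red) and the 642 shared sites (blue) overlapped by a peak in each of the 16 lists, in percent on the x axis, with exact Clopper-Pearson 95% intervals over sites. The 6 DMSO lists and the IMR-32 WDR5 lists chose the sites. IMR-32-lacking sites lie to the right of shared sites in the 3 compound N-MYC lists and to the left in both IMR-32 N-MYC lists.

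The split depends on single lists at many sites. Of the 642 shared sites, 173 (26.9%) had a WDR5 peak in only 1 of the 2 IMR-32 lists. With IMR-32 WDR5 regions required in both lists, 777 sites counted as lacking. By distance to a listed peak, few sites lay near the boundary between the sets. Only 7 of the 600 IMR-32-lacking sites had an IMR-32 WDR5 peak within 1 kb, and the median gap to the nearest was 372708 bp. Just inside were GPR180 (chr13:95253615-95254368), FBXL4 (chr6:99394988-99396109) and PCNA (chr20:5099885-5100733), whose nearest IMR-32 WDR5 peaks lay 2, 30 and 252 bp away, in that order. PCNA encodes the sliding clamp of DNA replication and FBXL4 an F-box protein that restrains removal of mitochondria. Just outside were MAPT (chr17:43971228-43972392), which encodes tau, PYCR1 (chr17:79894865-79895700), an enzyme of proline synthesis, and ZNF837 (chr19:58891845-58892489). An IMR-32 WDR5 peak of a single list covered 73, 146 and 161 bp of these sites. Their IMR-32 WDR5 folds were 4.57 at MAPT in replicate 1, and 4.03 at PYCR1 and 4.47 at ZNF837 in replicate 3.

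N-MYC in IMR-32 was not used to choose the sites. It was listed at 67.2% of IMR-32-lacking sites in replicate 1 (403 of 600, exact 95% interval 63.2 to 70.9%) and at 55.7% in replicate 2 (interval 51.6 to 59.7%). At shared sites these shares were 82.2% and 70.6%, which leaves gaps of -15.1 and -14.9 percentage points. The gap was thus nearly equal in both libraries, and the intervals of the sets did not overlap. Intervals cover counting error over sites only, and sites of 1 library are not replicates. The WDR5 lists that helped choose the sites come from the same line, so the gap may not be independent of the choice. How much of the gap follows from the choice was not tested. The IMR-32 N-MYC lists held 8286 and 5242 peaks in replicates 1 and 2. Of the 600 IMR-32-lacking sites, 305 had N-MYC in both IMR-32 lists (50.8%), 127 in 1 list and 168 in none (28.0%). Among all 7442 promoter N-MYC regions of CHP-134 DMSO cells, 35.7% had N-MYC in both IMR-32 lists. Shared sites had N-MYC in both lists in 66.7% of cases and in neither in 13.9%. Thus N-MYC without a listed WDR5 peak in IMR-32 was common at the sites, but less common than N-MYC at sites with WDR5.

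In CHP-134 cells given the compound the order of the sets was the opposite. N-MYC was listed at 91.8%, 54.5% and 92.5% of IMR-32-lacking sites in replicates 1, 2 and 3, and at 86.4%, 45.8% and 88.3% of shared sites. IMR-32-lacking sites were thus higher in 3 of 3 compound lists, by 6.09 percentage points ± 2.34 (SD, n = 3). Replicate 2 stands apart with 2964 peaks against 11249 and 12313, and it had the largest gap, of 8.71 points. N-MYC in all 3 compound lists was found at 317 IMR-32-lacking sites (52.8%) and 291 shared sites (45.3%), and at 26.1% of all promoter N-MYC regions. Over the 5 N-MYC lists that did not choose the sites, the mean gap was -2.34 percentage points ± 11.7 (SD, n = 5), and an exact sign-flip test (two-sided) gave p = 0.625, where the smallest p it allows is 0.063. The mean therefore says little, since it averages gaps of opposite sign. The gap was 21.1 percentage points higher in the 3 compound lists than in the 2 IMR-32 lists. An exact permutation test (two-sided) gave p = 0.1, the smallest p that 3 lists against 2 allow, so the design cannot reach 0.05. The IMR-32 lists share their line with the WDR5 lists that helped choose the sites, and the part of this in the difference was not tested.

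The compound arm of that difference depended on how strongly WDR5 was listed in the DMSO lists. Among sites with WDR5 in all 3 DMSO lists, the N-MYC gap in the compound lists was 6.66, 19.2 and 7.98 points. Among sites with WDR5 in 2 DMSO lists it was -1.77, -1.46 and -1.22 points, so IMR-32-lacking sites were no longer higher. Without the promoters of cytosolic ribosomal protein genes the gaps were 2.003, 6.48 and 1.5004 points. The IMR-32 gap varied less over these subsets. It was -14.0 and -15.6 points at sites with WDR5 in all 3 lists, -15.9 and -14.5 points at sites with WDR5 in 2, and -13.5 and -13.02 points without the ribosomal protein promoters. Within the 5 bands of WDR5 percentile, the IMR-32 gap was below 0 in every band of both lists, from -20.5 to -9.48 points in replicate 1 and from -20.1 to -9.81 in replicate 2. The compound gap was below 0 in 3 of the 5 bands in replicates 1 and 3 and in 1 band in replicate 2. In the highest band, which held 26 IMR-32-lacking sites, it was 14.5, 27.6 and 5.69 points. N-MYC was listed there at 88.5%, 57.7% and 84.6% of IMR-32-lacking sites and at 74.0%, 30.0% and 78.9% of shared sites. In the band below it was listed at 90.0%, 58.3% and 90.8% of IMR-32-lacking sites and at 94.5%, 53.1% and 93.0% of shared sites. The shared sites thus changed more between these bands than the IMR-32-lacking sites.

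The IMR-32 gap was wider in the 3 lower bands of CHP-134 N-MYC percentile than in the 2 upper bands. It was widest in the second band from the bottom, at -26.2 and -26.7 points in replicates 1 and 2. In the lowest band of N-MYC percentile, 37.4% of IMR-32-lacking and 56.3% of shared sites had N-MYC in IMR-32 replicate 1, and 13.01% and 36.5% in replicate 2. In the highest band the shares were 94.2% and 97.7% in replicate 1 and 92.6% and 95.3% in replicate 2. Sites with the strongest N-MYC in CHP-134 thus had N-MYC in IMR-32 nearly everywhere, with or without a WDR5 peak.

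**Figure D2:**
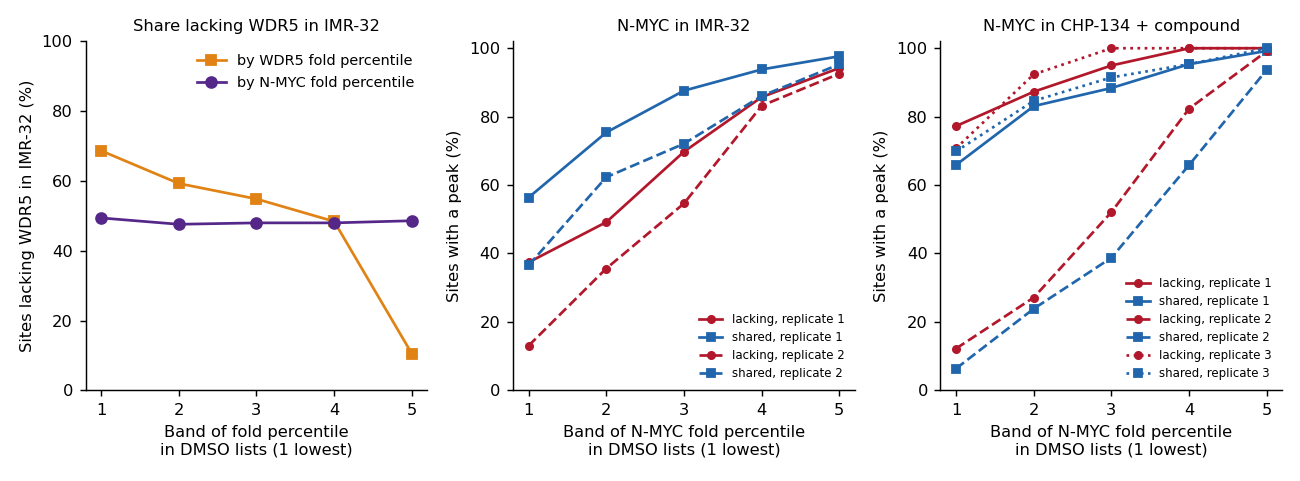
Left, share of promoter cobound sites lacking WDR5 in IMR-32, in percent, in 5 equal bands of the mean WDR5 (orange) or N-MYC (purple) fold percentile of the DMSO lists. Middle and right, share of IMR-32-lacking (red circles) and shared (blue squares) sites with an N-MYC peak by band of N-MYC percentile, 1 line per list, for IMR-32 and for compound-treated CHP-134 cells. The share lacking WDR5 falls to 10.4% in the top WDR5 band and stays between 47.6% and 49.4% over N-MYC bands, and the red and blue lines of IMR-32 come together in the top N-MYC band.

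Where N-MYC was listed in IMR-32, its rank was also lower at IMR-32-lacking sites. The median fold percentile was 68.8 and 64.2 in replicates 1 and 2, against 78.5 and 74.0 at shared sites. In the compound lists it was 73.4, 57.2 and 80.0 at IMR-32-lacking sites and 74.99, 57.8 and 76.9 at shared sites, so that 2 lists were lower and 1 was higher. The mean gap over the 5 lists was -3.73 percentile points ± 5.77 (SD, n = 5), which did not pass the test (exact sign-flip test, two-sided, p = 0.3125).

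WDR5 under the compound was listed at 48.5%, 0% and 9.83% of IMR-32-lacking sites and at 60.1%, 2.18% and 23.5% of shared sites. The lists differ widely in length, with 5973, 15 and 401 peaks, and replicate 2 had no peak at any IMR-32-lacking site (0 of 600, which allows a share of up to 0.613% by the exact interval). IMR-32-lacking sites were lower in 3 of 3 lists, by -9.16 percentage points ± 6.14 (SD, n = 3), and by -12.7 points without the shortest list. The exact sign-flip test (two-sided) gave p = 0.25, the smallest that 3 lists allow. WDR5 in 2 or more compound lists was found at 38 IMR-32-lacking sites (6.33%) and 132 shared sites (20.6%), against 13.7% of all promoter cobound sites. The lower WDR5 rank of the IMR-32-lacking sites in the DMSO lists moves with this difference, and its part in it was not tested. By band of WDR5 percentile the gap was below 0 in all 5 bands in replicates 1 and 3, from -36.9 to -4.48 and from -21.3 to -3.58 points. The highest of these bands held only 26 IMR-32-lacking sites. By band of N-MYC percentile it was above 0 in 1 band of replicate 1, at 1.78 points, and below 0 in all 5 bands of replicate 3.

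The sites with the highest WDR5 percentiles among those listed in all 3 DMSO lists were RNF130, ATL3, ENSG00000290523, TASOR2, MSL2, GTF2A1, ENSG00000237301 and LMCD1. RNF130 (chr5:179498861-179499941), which encodes an E3 ubiquitin ligase, had WDR5 folds of 19.7, 18.4 and 17.7 in the DMSO lists and no WDR5 peak in any compound or IMR-32 list. N-MYC there had folds of 10.3, 9.23 and 11.03 with DMSO, 8.28, 6.28 and 10.4 with the compound, and 8.76 in IMR-32 replicate 1 only. WDR5 at RNF130 was thus listed in 3 of the 8 WDR5 lists, all of them DMSO. ATL3 (chr11:63438541-63439560), an atlastin GTPase that shapes the endoplasmic reticulum, had WDR5 folds of 11.9, 9.75 and 9.34 and N-MYC folds of 10.7, 7.13 and 8.29 with DMSO. N-MYC stayed listed at ATL3 in all 3 compound lists, but in no IMR-32 list. ENSG00000290523, a long noncoding RNA gene on chromosome 21, showed the same lists as ATL3.

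MSL2 (chr3:135914763-135916142), a subunit of the MSL histone acetyltransferase complex, had WDR5 folds of 6.84, 9.02 and 7.78 with DMSO. It had N-MYC in every N-MYC list, with folds of 17.8 and 16.9 in IMR-32, a mean percentile of 98.98 there. TASOR2 (chr10:5726181-5727274) and GTF2A1 (chr14:81687005-81688369) likewise had N-MYC in all 8 N-MYC lists. GTF2A1 encodes the large subunit of the general factor TFIIA. Its N-MYC folds were 24.1, 15.1 and 24.5 with DMSO and 9.67 and 10.3 in IMR-32, and it had a WDR5 peak in compound replicate 1 with a fold of 5.20. LMCD1 (chr3:8543032-8543781), a LIM-domain regulator of transcription, had WDR5 folds of 10.6, 7.40 and 6.58 with modest N-MYC folds of 5.18, 5.67 and 5.28, and no N-MYC in IMR-32. Of these 8 sites, those with N-MYC in both IMR-32 lists (MSL2, TASOR2 and GTF2A1) also had N-MYC percentiles above 97 in CHP-134 DMSO cells on average.

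The 6 sites with the highest N-MYC percentile in IMR-32 were ENSG00000286874, CYTH1, FBXW8, DUS3L, LARP1 and NEFM. ENSG00000286874 (chr7:4681067-4682247) had N-MYC folds of 31.8, 36.2 and 33.6 with DMSO, 20.2, 23.1 and 36.5 with the compound, and 22.0 and 32.0 in IMR-32. Its WDR5 folds were low, 3.81 and 4.98 in DMSO replicates 1 and 2. CYTH1 (chr17:76712850-76713977), an exchange factor for ARF GTPases, had WDR5 folds of 2.62 and 2.89, near the bottom of their lists, and N-MYC folds of 19.9 and 20.0 in IMR-32. FBXW8 (chr12:117348364-117349171), an F-box protein of a CUL7 ubiquitin ligase, had N-MYC folds of 21.4 and 17.8 in IMR-32 and WDR5 folds of 5.10 and 4.57 in CHP-134. The mean WDR5 percentile of the 6 sites in CHP-134 DMSO cells did not pass 55.7.

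DUS3L (chr19:5790510-5791464), a tRNA and mRNA dihydrouridine synthase, had IMR-32 N-MYC folds of 18.7 and 18.3. LARP1 (chr5:154134087-154135583), an RNA-binding protein that controls the translation of ribosomal protein mRNAs, had folds of 19.0 and 17.5, and it was the only site of the 6 with WDR5 in all 3 DMSO lists. NEFM, which encodes the medium neurofilament chain of neurons, had folds of 19.6 and 17.2. An IMR-32 WDR5 peak lay 308 bp from the NEFM site, so this locus is close to the threshold.

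N-MYC was in neither IMR-32 list at 168 sites. The 6 of these with the highest N-MYC percentile in DMSO cells were TMEM185B, TRIM71, RNF2, PURA, INSIG1 and NKPD1. TRIM71 (chr3:32857935-32859879), a stem cell factor that represses target mRNAs, had N-MYC folds of 14.99, 13.5 and 10.98 with DMSO and 10.1, 7.72 and 12.02 with the compound. Its WDR5 folds were 6.002, 5.16 and 3.65 with DMSO and 7.13 in compound replicate 1. RNF2 (chr1:185014118-185015061), the E3 ligase of Polycomb repressive complex 1, had N-MYC folds of 10.3, 10.1 and 10.8 with DMSO and 6.94, 6.87 and 7.27 with the compound. INSIG1 (chr7:155088612-155090984), which holds the sterol sensor of SREBP in the endoplasmic reticulum, had N-MYC folds of 11.1, 8.82 and 8.997 with DMSO. PURA (chr5:139493232-139494106), a nucleic acid-binding protein of neurons, had N-MYC in DMSO replicates 1 and 3 only, with folds of 8.92 and 13.1. These sites had N-MYC in most CHP-134 lists and neither protein in IMR-32.

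**Figure D3:**
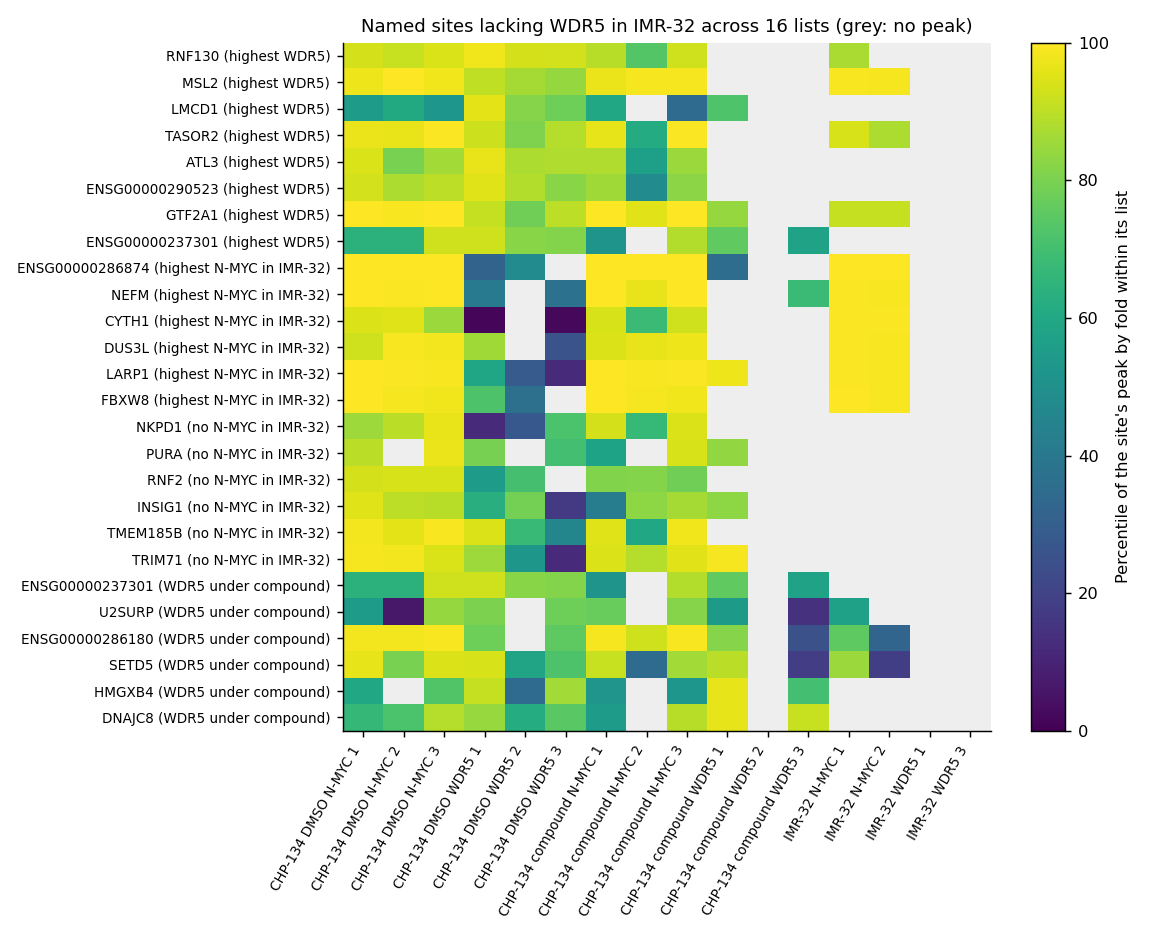
Percentile of the site's peak by fold within each of the 16 lists (columns, colour from 0 to 100, grey for no peak) at IMR-32-lacking sites named by rule (rows). The sites with the highest N-MYC in IMR-32, which that value chose, have N-MYC in every N-MYC list, while their WDR5 percentiles in the CHP-134 lists run from low to high. The last 2 columns are grey throughout, since this chose the sites.

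The CACGTG E-box was looked for within 100 bp of the N-MYC summit on both strands. It was present at 238 of the 600 IMR-32-lacking sites (39.7%, exact 95% interval 35.7 to 43.7%) and at 36.6% of shared sites (interval 32.9 to 40.5%), and these intervals overlapped. All promoter N-MYC regions of CHP-134 had it in 27.0% of cases and windows at all protein-coding TSSs in 5.43%. Windows of the same length 2 kb from the summits of the IMR-32-lacking sites had it in 1.17%. Of other motifs, CACGCG, whose copies cannot overlap a CACGTG, was at 31.3% of IMR-32-lacking and 26.0% of shared sites. CCGGAAG, the core bound by ETS factors, was at 8.50% (interval 6.39 to 11.02%) and 12.5% (interval 10.0 to 15.3%). CCAAT, the core bound by NF-Y, was at 20.8% and 20.2%. All promoter N-MYC regions held these motifs in 28.3%, 9.54% and 18.5% of cases.

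Within the IMR-32-lacking sites, the E-box went with N-MYC in the lists that did not choose them. It was present at 159 of the 305 sites with N-MYC in both IMR-32 lists (52.1%, interval 46.4 to 57.9%), at 26.8% of the 127 sites with N-MYC in 1 list and at 26.8% of the 168 sites with N-MYC in neither (interval 20.3 to 34.2%). At shared sites with N-MYC in neither list it was at 9 of 89 (10.1%, interval 4.73 to 18.3%). Sites with neither protein listed in IMR-32 thus had the E-box more often than sites with WDR5 alone there. These intervals did not overlap, but they cover counting error over sites only. Sites are not replicates, and the difference was not tested. Likewise, 50.2% of the 317 IMR-32-lacking sites with N-MYC in all 3 compound lists had the E-box, against 27.9% of the remaining 283. The 2 splits are related, since 231 of the 305 sites with N-MYC in both IMR-32 lists had it in all 3 compound lists, but 36 of the 168 sites with N-MYC in neither.

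The summits lay farther upstream at IMR-32-lacking sites. Positions are given from the TSS that names the site. This is the protein-coding TSS nearest to its centre, or a long noncoding RNA TSS where no coding one was within 1 kb. The median WDR5 summit in the DMSO lists was 58, 45 and 90 bp upstream of this TSS in replicates 1, 2 and 3. At shared sites it was 62, 71 and 50.5 bp downstream. The WDR5 summit was downstream of the TSS at 40.3%, 44.2% and 37.3% of IMR-32-lacking sites and at 56.0%, 57.0% and 55.5% of shared sites. The N-MYC summit followed in all 8 N-MYC lists. In IMR-32 its median was 91 and 91.5 bp upstream at IMR-32-lacking sites and 38 and 32 bp upstream at shared sites. In the compound N-MYC lists the medians were 70, 101 and 70 bp upstream against 51, 44 and 38 bp. The WDR5 lists of compound-treated cells did not share an order, with medians 29 bp upstream against 40 bp downstream in replicate 1, and 17 bp downstream against 6 bp upstream at the 59 and 151 sites of replicate 3. The shift in the DMSO WDR5 lists was smaller in subsets of the sites. Without ribosomal protein promoters the medians of shared sites were 37, 34.5 and 15 bp downstream, and those of IMR-32-lacking sites 58, 47 and 91 bp upstream. Without the highest band of WDR5 percentile the medians of shared sites were 20 and 11 bp downstream in replicates 1 and 2 and 12 bp upstream in replicate 3, and those of IMR-32-lacking sites 55, 43 and 81.5 bp upstream. IMR-32-lacking minus shared sites then differed by -75, -54 and -69.5 bp, against -120, -116 and -140.5 bp over all sites. These positions come from the peaks that chose the sites for the DMSO lists and are a description there.

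**Figure D4:**
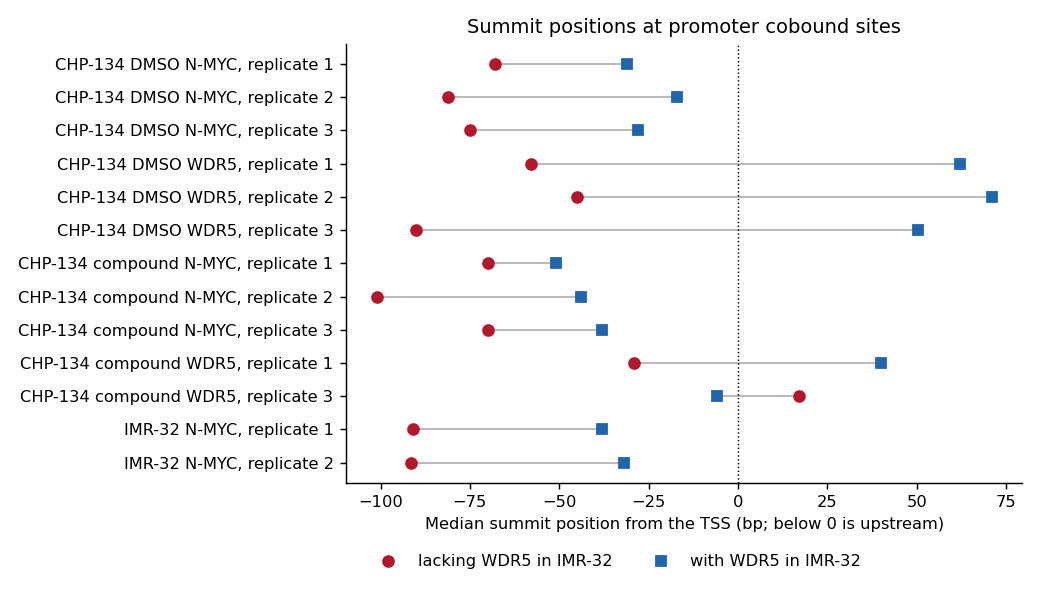
Median summit position relative to the TSS that names the site, in bp with upstream below 0, at IMR-32-lacking (red circles) and shared (blue squares) sites in the 13 lists with peaks at both sets outside the IMR-32 WDR5 lists. Red lies left of blue in every list but compound WDR5 replicate 3.

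Other features of the promoters are given as a description. The median site was 1025 bp wide, against 1154 bp for shared sites, and the N-MYC and WDR5 summits were 104.5 and 119 bp apart. GC content over 1 kb around the centre was 65.8% in the median and 63.6% at shared sites. A protein-coding TSS lay within 1 kb of 556 IMR-32-lacking sites (92.7%), and 44 (7.33%) had a long noncoding RNA TSS only, against 4.05% of shared sites. Coding genes on both strands were found at 67 sites (11.2%) and at 17.0% of shared sites. The centre fell in an untranslated region at 200 sites, in another exon at 84, in an intron at 154 and upstream of the gene at 162.

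Chromosomes 7 and 12 stood at opposite ends among chromosomes with more than 60 promoter cobound sites, and were chosen after their values were seen. On chromosome 12, 16 of 67 sites lacked WDR5 in IMR-32 (23.9%, exact 95% interval 14.3 to 35.9%). On chromosome 7, 51 of 78 did (65.4%, interval 53.8 to 75.8%). The chromosomes also differed in their share of all peaks. Chromosome 12 held 4.89 to 5.06% of WDR5 peaks of CHP-134 DMSO lists and 7.23 to 7.38% of those of IMR-32, and 4.83 to 5.17% and 7.07 to 7.33% of the N-MYC peaks. Chromosome 7 held 6.43 to 7.54% and 2.94 to 3.66% of the WDR5 peaks, and 5.91 to 6.10% and 4.31 to 4.57% of the N-MYC peaks. The 2 lines thus differed in both proteins on these chromosomes, and the part of this in the choice of sites was not tested. Without chromosomes 7 and 12, 533 of 1097 sites lacked WDR5 in IMR-32, and the gap of the compound over the IMR-32 N-MYC lists was 21.4 percentage points.

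**Figure D5:**
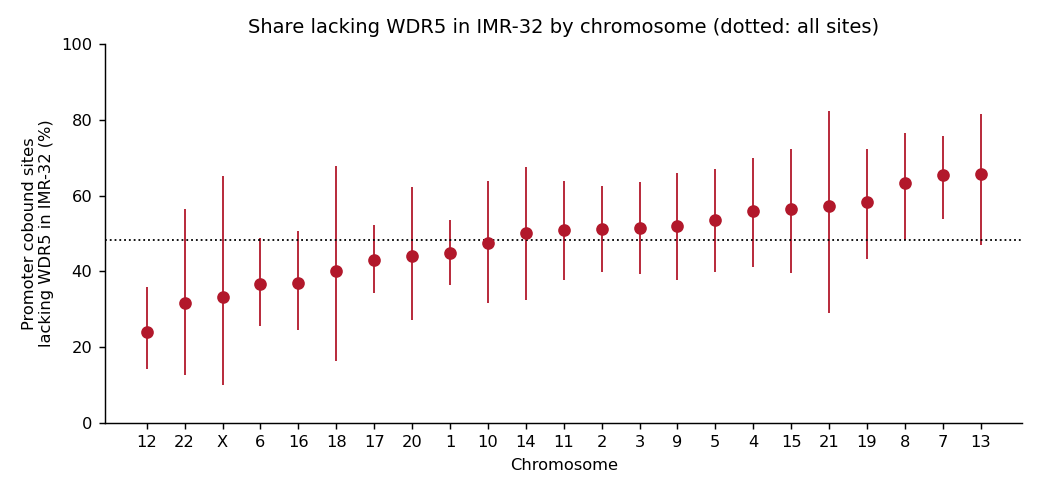
Share of promoter cobound sites lacking WDR5 in IMR-32 by chromosome, in percent with exact Clopper-Pearson 95% intervals, for chromosomes with 12 or more sites, and the share over all sites (dotted, 48.3%). Chromosome 12 lies at 23.9% and chromosome 7 at 65.4%.

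The 14 gene lists held 83 of the 600 IMR-32-lacking sites (13.8%) and 161 of the 642 shared sites (25.1%). Shares lacking WDR5 in IMR-32 are set beside the 48.3% of all promoter cobound sites as a description, because the same peaks chose the sites. Cytosolic ribosomal protein genes, the classic conserved WDR5 targets, had 53 promoter cobound sites, of which 6 lacked WDR5 in IMR-32 (11.3%). A list counts a site where a list gene has a TSS within 1 kb of the centre, even if another gene's TSS is nearer. These 6 were counted for RPL36, RPS19, RPS20, RPS27A, RPS27L and RPS29. The RPS29 site is nearest to LRR1, and the RPL36 site also holds TSSs of HSD11B1L and MICOS13. Their median WDR5 percentile in DMSO cells was 61.1, against 97.9 at the 47 shared sites. RPL36 (chr19:5680347-5682048) had WDR5 folds of 6.99, 8.604 and 4.67 with DMSO, and RPS19 (chr19:42363554-42364731) had 6.07 and 5.46 in replicates 2 and 3. RPL36 also had a second, shared site, so an IMR-32 WDR5 peak was listed at another start site of this gene. The IMR-32 WDR5 peak nearest to the lacking site was 7886 bp away. N-MYC was in both IMR-32 lists at 1 of the 6 sites, the one counted for RPL36, and in all 3 compound lists at none. Over all IMR-32-lacking sites these shares were 50.8% and 52.8%.

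Translation factor genes lacked WDR5 in IMR-32 at 4 of 17 sites, at EIF2B3, EIF3B, EIF4E and EIF4E3. All 4 had N-MYC in both IMR-32 lists and WDR5 in a compound list. A WDR5 peak in a compound list was common over all sites. Only 48.0% of the 600 IMR-32-lacking sites and 36.8% of shared sites had none. EIF3B (chr7:2393362-2394673), a core subunit of the initiation factor that recruits the small ribosomal subunit, had IMR-32 N-MYC folds of 13.8 and 10.9. EIF4E (chr4:99849221-99850792), the cap-binding protein, had folds of 7.24 and 6.77. Spliceosome genes lacked it at 6 of 29 sites, among them HNRNPA3, EFTUD2 and U2SURP, and 5 of the 6 had N-MYC in both IMR-32 lists. Small nucleolar RNA host genes lacked it at 4 of 12 sites, at SNHG5, SNHG16, SNHG26 and ZFAS1, and all 4 had N-MYC in both IMR-32 lists and in all 3 compound lists. SNHG26 (chr7:22893625-22894557) had N-MYC folds of 15.02, 20.3 and 17.8 with DMSO and 18.1 and 12.4 in IMR-32. Over all IMR-32-lacking sites, 50.8% had N-MYC in both IMR-32 lists and 52.8% in all 3 compound lists. The gene lists went different ways around the IMR-32 share, with 1 of 6 cytosolic and 1 of 3 mitochondrial ribosomal protein sites and 1 of 2 aminoacyl-tRNA synthetase sites.

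Ribosome biogenesis and RNA polymerase I genes lacked WDR5 in IMR-32 at 10 of 23 sites (43.5%). Of the 10, 7 had N-MYC in both IMR-32 lists, against 50.8% of all IMR-32-lacking sites. An E-box was at 6 of the 10, against 39.7% of all IMR-32-lacking sites. Other lists went different ways around that share, with 4 of 6 spliceosome and 1 of 6 cytosolic ribosomal protein sites. UTP11 (chr1:38477805-38478970), a component of the small subunit processome, had WDR5 folds of 9.09, 6.07 and 8.30 with DMSO and N-MYC folds of 19.9, 13.7 and 21.2. NOL11 (chr17:65713638-65714626), which acts in the same processome, and a site between GRK4 and NOP14 were the others named by rule. Mitochondrial ribosomal protein genes lacked it at 3 of 9 sites, at MRPS5, MRPS15 and MRPS35, aminoacyl-tRNA synthetase genes at 2 of 4 (TARS3 and YARS1) and oxidative phosphorylation genes at 2 of 4 (ATP5F1E and NDUFS7).

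Cell cycle and replication genes lacked WDR5 in IMR-32 at 12 of 27 sites (44.4%) and DNA repair genes at 13 of 30 (43.3%). The cell cycle members included the retinoblastoma gene RB1, PCNA, CENPF and POLE3. CENPF (chr1:214776031-214776906), a kinetochore protein, had N-MYC folds of 16.9, 12.9 and 19.9 with DMSO and 9.52 and 10.8 in IMR-32, with low WDR5 folds of 3.81 and 4.10. DNA repair members included ATR, the kinase that senses stalled replication forks, BRCA2, MSH5 and RAD17. The site shared by TAF9 and RAD17 (chr5:68664929-68665941) had a peak in 7 of the 8 lists that did not choose the sites. The rule that named it picks sites found in most of these lists. A peak in 7 of them was found at 22 of the 600 IMR-32-lacking sites (3.67%) and 9.66% of shared sites. ATR (chr3:142297143-142297981) had N-MYC folds of 7.85 and 6.19 in IMR-32. N-MYC was in both IMR-32 lists at 7 of the 12 cell cycle and 6 of the 13 DNA repair sites, near the 50.8% of all IMR-32-lacking sites.

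Zinc finger genes were the list with the largest share, 19 of 31 sites (61.3%). Of the 19, 12 had N-MYC in both IMR-32 lists, against 50.8% of all IMR-32-lacking sites. ZNF580 (chr19:56151232-56152258) had N-MYC folds of 13.4, 8.87 and 12.3 with DMSO and 8.39 and 11.6 in IMR-32. ZNF783, named by the same rule as the TAF9 and RAD17 site, had peaks in 7 of the 8 lists that did not choose the sites. The list of WDR5 and MLL/SET1 complex genes had 2 of 7 sites, at KANSL1 and at WDR5 itself. The WDR5 promoter (chr9:137000606-137001151) had N-MYC folds of 4.75, 3.91 and 4.15 with DMSO, WDR5 folds of 4.84 and 3.68 in replicates 1 and 2, and N-MYC folds of 3.78 and 3.89 in compound replicates 1 and 3. Neither protein was listed there in IMR-32. Proteasome genes lacked WDR5 in IMR-32 at 0 of 2 sites and adrenergic neuroblastoma transcription factors at 0 of 1.

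WDR5 stayed listed in 2 compound lists at 38 IMR-32-lacking sites, always replicates 1 and 3 since replicate 2 had none. The 6 with the highest WDR5 percentile with DMSO were ENSG00000237301, U2SURP, ENSG00000286180, SETD5, DNAJC8 and HMGXB4. DNAJC8 (chr1:28559139-28559825), a J-domain protein that associates with splicing factors, had WDR5 folds of 5.95, 5.57 and 6.23 with DMSO and 6.22 and 7.15 with the compound. HMGXB4 (chr22:35653209-35654352), an HMG-box protein, had 7.04, 4.52 and 8.56 with DMSO and 6.28 and 5.51 with the compound. Both had N-MYC in no IMR-32 list. U2SURP (chr3:142720001-142721237), an RNA-binding protein linked to the U2 snRNP, had 5.604 and 6.55 with DMSO and 4.24 and 3.89 with the compound, and N-MYC in IMR-32 replicate 1 with a fold of 5.74. Folds of different lists depend on each library's background and depth and are given side by side without a comparison.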

How the data were processed

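N-MYC and WDR5 ChIP-seq of CHP-134 and IMR-32 cells was read from 16 deposited peak lists, grouped by the sample labels. The 6 IgG samples were not analysed here. The authors removed adapters with Cutadapt, mapped them with Bowtie2 (hg19) and called peaks per library by MACS2 at a q-value of 0.05, and the submitters' processing notes also name DiffBind. Versions are not given in the sources used here. The deposited fold is a linear ratio of signal over local background, and the deposited p-values and q-values are on a −log10 scale. The deposited score, an integer that follows the q-value, was not used. Folds were ranked within a list as percentiles. The lists carry no read totals, so depth is unknown and the number of peaks, 15 to 15286 per list, is the nearest guide. Longer or deeper lists hold more weak peaks, which changes which sites count as lacking.

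Regions were rebuilt by merging peaks that overlapped by 1 bp and keeping those with at least 2 of 3 libraries (DiffBind was not run). TSSs of coding and long noncoding RNA genes were taken from GENCODE 44 mapped to GRCh37. Sequences were read from GRCh37 with pysam 0.24.0. Shares of sites were compared per list, with exact sign-flip tests over the lists that did not choose the sites and an exact permutation test of compound against IMR-32 lists (Python 3.11.15, SciPy 1.17.1). Overlap, selection and the tests were tested on simulated data. The members, gene lists and tests were chosen with earlier results of these data known, and no p-value over sites was computed. Alternatives were stricter q-values, the number of libraries, the overlap, the IMR-32 rule, the distance to a TSS, coding TSSs, the summit window, the mean in place of the median, the replicate block and leaving out each list.

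A site was named after the nearest protein-coding TSS within 1 kb of its centre, or else the nearest long noncoding RNA TSS. Sites named in the text are the 8 with the highest mean WDR5 percentile among those with WDR5 in all 3 DMSO lists, up to 3 per gene list found in most of the 8 lists not used for the choice, 3 on each side of the threshold, the 6 with the highest IMR-32 N-MYC percentile, the 6 with the highest DMSO N-MYC percentile among those without IMR-32 N-MYC, and up to 6 with WDR5 in 2 or more compound lists.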

Additional observations from a re-analysis of the deposited data

Results flagged for a closer look

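The N-MYC gap between IMR-32-lacking and shared promoter sites differed between compound-treated CHP-134 and IMR-32 cells by 21.1 percentage points. It was singled out because all 3 compound lists had more N-MYC at IMR-32-lacking sites and both IMR-32 lists had less. The IMR-32 N-MYC lists come from the line whose WDR5 lists helped choose the sites, and the part of this in the difference was not tested. Among sites with WDR5 in 2 DMSO lists, IMR-32-lacking sites were not higher in the compound lists. The exact permutation test gave p = 0.1, the smallest it allows. Treatment, line and sequencing run differ together between these lists and cannot be told apart.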

How the results depend on the processing

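The difference in N-MYC gap between compound and IMR-32 lists kept its direction in every alternative run, from 18.9 to 25.9 points when leaving out 1 list and from 16.7 points within WDR5 bands, or 16.6 without ribosomal protein promoters, to 27.5 points with regions of all 3 DMSO libraries. The bands, the sites with N-MYC in all 3 DMSO lists, and the exclusions of ribosomal protein promoters and of chromosomes 7 and 12 were chosen after seeing the data. With the replicate block (numbers 1 and 2) it was 22.0 points, exact sign-flip p = 0.5. The numbers join different lines. The correlations used to check the pairing over 7442 regions were 0.0715 and 0.0825 for same-numbered lists. They were -0.0715 and -0.0825 for differently numbered ones. These values mirror each other exactly, so they do not measure how alike the lists of the lines are. The mean N-MYC gap changed sign with regions of all 3 DMSO libraries (0.749 points), with IMR-32 WDR5 regions required in both lists (2.19), and without IMR-32 N-MYC replicate 1 (0.845) or 2 (0.799) or IMR-32 WDR5 replicate 1 (0.977), with a range of -5.10 to 0.977 when leaving out 1 list. The rank gap ranged from -5.42 to -1.20 when leaving out 1 list and was 0.500 with IMR-32 WDR5 regions in both lists. The compound WDR5 gap ranged from -12.7 to -6.90 points and stayed below 0 throughout. The number of sites was 147 with all 3 and 2659 with any DMSO library, and 187 to 724 when leaving out 1 list. The E-box share was 49.7% and 27.7% in those 2 settings, 39.6 to 45.5% when leaving out 1 list, and 31.3% and 48.8% with 50 and 250 bp around the summit. The number of peaks per list limits what counts as lacking, no test here could pass 0.05, and the cause of these changes was not tested beyond the fewer or more sites each setting admits.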
